A study of Mus musculus with 30 samples.

Results

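Complement genes were described across 30 subcutaneous B16F10 tumors, a transplanted mouse melanoma. The set holds 9 genes: the 3 chains of C1q (C1qa, C1qb and C1qc), C2, C3, C4b, Cfb, Serping1 and C3ar1. They were chosen by symbol, and all 9 were found among the 18975 genes of the deposited table and passed the filter on low values.

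The tumors grew in female C57BL/6 mice that were wild type (WT, genotype label ARE-del +/+) or heterozygous for ARE-del (HET, label ARE-del +/-). That allele lacks an AU-rich element of Ifng, which encodes the cytokine interferon-gamma (IFN-gamma); AU-rich elements make mRNAs less stable. B16F10 is a separate cell line, so within a tumor the allele is in the host cells and not in the melanoma cells. After 7 days of growth, mice received antibodies 2 times a week: rat IgG2A as control, 0.25 mg of anti-PD1 (which blocks an inhibitory receptor of T cells), 0.25 mg of agonist anti-CD40 (which stimulates dendritic cells, macrophages and B cells), or both, called the combination. WT mice gave 5 IgG, 4 anti-PD1, 3 anti-CD40 and 3 combination tumors, and HET mice gave 4, 3, 4 and 4 in that order. The labels do not say that the tumors of a group came from separate animals, so the p-values reflect only the spread among these tumors, which may be technical. Bulk RNA was sequenced, so fewer cells of a type and less RNA per cell cannot be told apart.

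Complement is a cascade of plasma and locally made proteins. In the classical pathway, C1q binds antibody or other ligands, and the proteases attached to it cleave C4 and C2, which together form a C3 convertase. In the alternative pathway, factor B (Cfb) takes the place of C2. Cleaved C3 tags surfaces and releases the fragment C3a, which acts on the receptor C3ar1, while the C1 inhibitor Serping1 blocks the first proteases. The liver makes most circulating complement, whereas in tissues C1q is made mainly by macrophages, and C3, C4 and C1 inhibitor can be induced by cytokines, IFN-gamma among them.

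Each library held between 17.6 M and 36.0 M reads, so 1 read equals between 0.0276 and 0.0596 CPM (the reads of a gene scaled to the library total). HET IgG replicate 2 stood apart, with 6.53% of its reads in mitochondrial genes against at most 4.46% in the other libraries. WT anti-CD40 replicate 2 and HET anti-CD40 replicates 3 and 4 had the highest keratinocyte marker levels. Melanocyte markers were high in all 30 libraries, with a summed level of at least 25370 CPM over 9 genes. Of 10 hepatocyte markers, 3 were in the table and none exceeded 0.596 CPM in any library. Sample descriptions carry an unexplained L number from 5 to 8. All WT IgG tumors were L5, all WT anti-CD40 and WT combination tumors L6, HET anti-PD1 tumors L7, HET combination tumors L8, and HET anti-CD40 tumors L7 or L8. WT anti-PD1 replicate 4 was L6 and the other WT anti-PD1 tumors L5. HET IgG replicate 1 was L6, replicates 2 and 3 were L7 and replicate 4 was L8.

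The C1q genes lie next to each other on the minus strand of chromosome 4 (mm10, GENCODE vM21): C1qb (ENSMUSG00000036905.8) at chr4:136880129-136886187, C1qc (ENSMUSG00000036896.5) at chr4:136889804-136893065 and C1qa (ENSMUSG00000036887.5) at chr4:136895917-136898803. Because these neighbours moved together across the tumors, the 250 bases before the start sites were searched on both strands for short motifs, of which 2 are given here, in the RefSeq promoter table (GRCm38.p6), which held 4 of the 9 members (C1qb, C1qc, C3 and C3ar1). These are GAGGAA, a core bound by the myeloid factor PU.1, and the interferon-stimulated response element, searched as a pair of GAAA runs with 2 bases between them. They occur in 23.3% and 2.98% of 32851 promoter windows of that length. C1qb and C1qc each held 1 GAGGAA match (TTCCTC where it lies on the other strand), beginning 30 and 193 bases before the RefSeq start site. For C1qc that start lies inside the GENCODE gene given above, which ends at 136893065. Its window, chr4:136892915-136893164, therefore lies partly within that gene. C3 and C3ar1 held neither of the 2, and no window of the 4 held the interferon-stimulated response element. The 30 bases around both matches, on the strand of the gene and with the match in capitals, lie at chr4:136886213-136886242 for C1qb and chr4:136893090-136893119 for C1qc. A match of letters is a description, not a binding site.
C1qb: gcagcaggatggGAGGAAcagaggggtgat
C1qc: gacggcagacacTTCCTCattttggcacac

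C2 (ENSMUSG00000024371.10, chr17:34862604-34898265), Cfb (ENSMUSG00000090231.6, chr17:34856374-34862518) and C4b (ENSMUSG00000073418.4, chr17:34728380-34743882) lie in the class III region of the MHC. Exons of other genes overlap 46.9% of the exon bases of C2 and 79.5% of those of Cfb, the shared model being Gm20547. Strand use in the counting is not given in the sources used here. The division of reads between each of these 2 genes and the models that overlap it is therefore uncertain. So is the division between C4b and its near-identical copy C4a. C3 (ENSMUSG00000024164.11) lies at chr17:57203970-57228136, Serping1 (ENSMUSG00000023224.8) at chr2:84765387-84775444 and C3ar1 (ENSMUSG00000040552.8) at chr6:122847138-122856161, all on the minus strand.

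Per kilobase of exon, C1qb and C1qa had the highest mean levels of the 9 genes. Mean levels over the 30 libraries were 47.9 CPM per kb for C1qb, 42.7 for C1qa, 25.4 for C2, 23.3 for C1qc, 20.9 for C4b, 8.56 for Serping1, 2.20 for C3ar1, 2.10 for C3 and 0.478 for Cfb. Their spread differed too: the highest library exceeded the lowest by a factor of 166 for C3 and 47.3 for C1qa, but of 2.16 for C2.

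**Figure D1:**
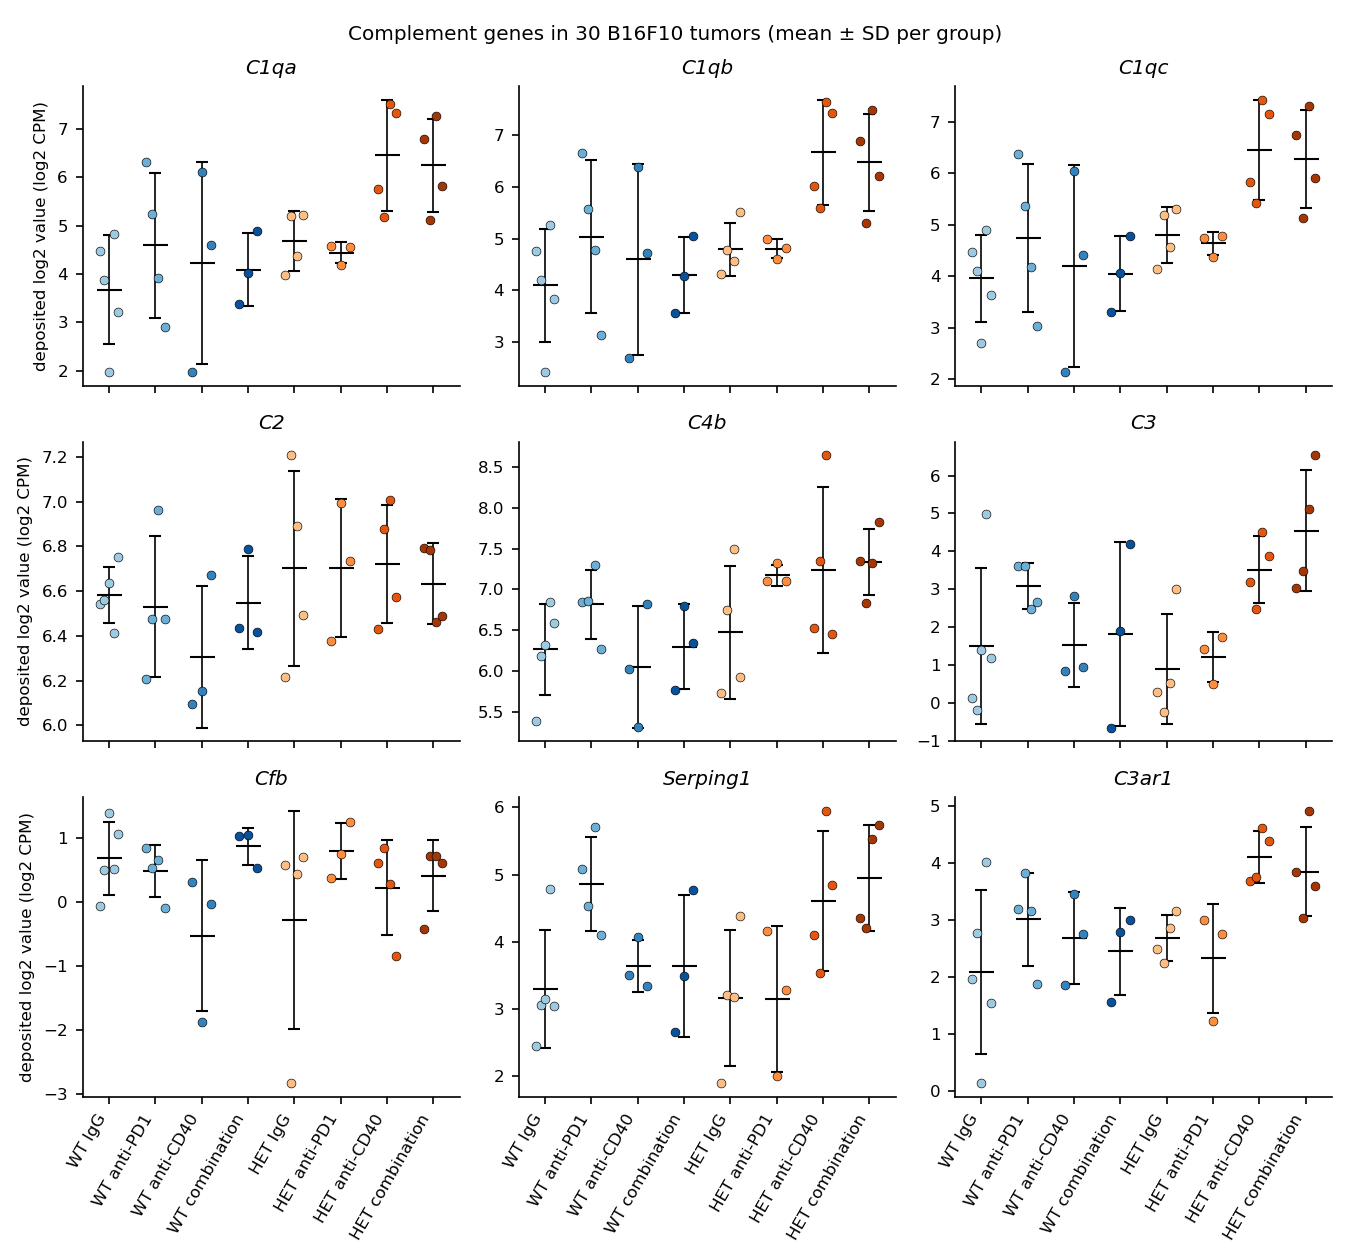
Deposited log2 value (log2 CPM, vertical axis, 1 scale per panel) of the 9 complement genes in each tumor, by genotype and treatment; points are libraries, the long bar is the group mean and the whisker 1 SD. The HET anti-CD40 and HET combination means are the highest of the 8 groups for the C1q chains, C3, C4b and C3ar1, while for C2 the highest library exceeds the lowest by a factor of 2.16.

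C1q, which starts the classical pathway, was highest in HET tumors given the CD40 agonist, alone or in the combination. C1qb stood at 27.1, 18.3, 5.27, 38.5 and 14.1 CPM in WT IgG tumors (in replicate order) and at 19.9, 27.2, 23.7 and 45.3 CPM in HET IgG tumors. In HET anti-CD40 tumors it reached 64.6, 47.9, 200 and 171 CPM, and in HET combination tumors 118, 39.6, 179 and 74.3 CPM. Every HET anti-CD40 tumor lay above every HET IgG tumor, while HET combination replicate 2 lay below HET IgG replicate 4. How many of all genes separate in this way is not given here, so the separation is a description only. WT tumors did not share this order. C1qb was 6.41, 83.3 and 26.4 CPM in WT anti-CD40 tumors and 11.8, 19.3 and 32.9 CPM in WT combination tumors. WT anti-PD1 tumors gave 101, 47.3, 27.3 and 8.74 CPM, and HET anti-PD1 tumors 31.7, 24.3 and 28.1 CPM. Both WT groups that hold a tumor above 80 CPM also hold one below 10 CPM, and the 3 HET anti-PD1 tumors lay close together.

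C1qa and C1qc followed C1qb from tumor to tumor. C1qa ran from 34.4 to 182 CPM in the 8 HET tumors given the CD40 agonist and from 15.7 to 36.9 CPM in the 7 given IgG or anti-PD1. C1qc ran from 35.2 to 171 CPM and from 17.7 to 39.4 CPM in the same tumors. WT tumors overlapped both sets, from 3.85 to 78.9 CPM for C1qa and from 4.33 to 83.0 CPM for C1qc. The highest WT values were those of WT anti-PD1 replicate 1. WT anti-CD40 replicate 2 held 68.5 CPM of C1qa and 65.7 CPM of C1qc. Over the 30 libraries the log2 values of any pair of chains correlated at r = 0.989 to 0.994, a description of genes that share library, depth and cluster. The log2 value of C1qb exceeded that of C1qa by 0.30 ± 0.22 (SD, n = 30), with the single reversal of -0.43 in HET IgG replicate 2, the tumor with the most mitochondrial reads.

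In the order of group means of log2 value, HET anti-CD40 and HET combination came first and second for all 3 chains, and the gap between the second and the next group exceeded their pooled SD. It was 1.55 for C1qa, 1.44 for C1qb and 1.47 for C1qc, against pooled SDs of 0.81, 1.24 and 0.77. No other neighbours in the order of a C1q chain differed by more than their pooled SD. Among the other 6 members such a gap occurred once each for C4b (HET anti-PD1 above WT anti-PD1, 0.36), Serping1 (HET anti-CD40 above WT anti-CD40, 0.97) and C3ar1 (HET combination above WT anti-PD1, 0.84).

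C3, on which all pathways converge, varied most. In WT IgG tumors it stood at 1.01, 0.796, 2.55, 31.7 and 2.22 CPM, so a single tumor held most of that group's signal. HET IgG tumors gave 1.15, 0.775, 1.36 and 7.95 CPM and HET anti-PD1 tumors 2.59, 1.33 and 3.26 CPM. These 7 HET tumors were low, with HET IgG replicate 4 highest among them. The CD40 agonist groups of HET mice were higher: 9.02, 5.54, 22.9 and 14.5 CPM after anti-CD40 and 8.20, 11.1, 34.7 and 92.7 CPM after the combination. All 4 HET combination tumors exceeded all 4 HET IgG tumors, and HET anti-CD40 replicate 2 alone of the 8 fell below HET IgG replicate 4. In WT mice, C3 was 12.3, 12.1, 5.50 and 6.27 CPM after anti-PD1, 1.71, 6.99 and 1.87 CPM after anti-CD40, and 0.559, 3.65 and 18.3 CPM after the combination. WT anti-PD1 tumors (L5 or L6) lay above all 3 HET anti-PD1 tumors (L7), so genotype and L number cannot be told apart there. For neither this separation nor that of HET combination from HET IgG is the share of all genes without overlap given. Both are descriptions only.

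Serping1, the C1 inhibitor, stood at 5.38, 8.27, 8.78, 27.3 and 8.20 CPM in WT IgG tumors and 33.9, 23.1, 52.0 and 17.1 CPM in WT anti-PD1 tumors. HET IgG tumors gave 3.64, 9.12, 8.94 and 20.7 CPM, HET anti-CD40 tumors 17.0, 11.5, 61.6 and 28.8 CPM, and HET combination tumors 20.3, 18.4, 46.1 and 53.0 CPM. The HET groups overlapped through HET IgG replicate 4, the tumor that was also highest among HET IgG tumors for C1qb, C3 and C3ar1. In the remaining groups Serping1 ran from 10.1 to 16.8 CPM (WT anti-CD40), 6.24 to 27.1 (WT combination) and 3.94 to 17.8 (HET anti-PD1). WT anti-PD1 ranked second of the 8 group means of log2 value, 0.10 below HET combination.

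C3ar1, the receptor of C3a on myeloid cells, was 5.57, 4.65, 7.17 and 8.86 CPM in HET IgG tumors and 12.8, 13.5, 24.5 and 20.7 CPM in HET anti-CD40 tumors, with no overlap. The share of all genes without overlap is not given here, so this is a description only. HET combination tumors held 14.3, 8.18, 30.1 and 12.1 CPM. All WT groups had lower means than both HET agonist groups. Their 15 tumors ran from 1.02 to 16.1 CPM and overlapped the HET agonist tumors. WT IgG replicate 4, at 16.1 CPM, lay above HET anti-CD40 replicates 1 and 2. HET anti-PD1 tumors held 7.90, 2.26 and 6.71 CPM.

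C4b, cleaved by the C1 proteases, was abundant everywhere. It ran from 40.0 to 157 CPM over the 15 WT tumors. HET IgG tumors held 53.2, 108, 181 and 60.7 CPM, HET anti-PD1 tumors 137, 160 and 137 CPM, HET anti-CD40 tumors 92.3, 162, 399 and 87.6 CPM, and HET combination tumors 163, 114, 160 and 226 CPM. The HET combination, HET anti-CD40 and HET anti-PD1 groups ranked highest by mean log2 value, with gaps of 0.09 and 0.07 between them.

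C2 and Cfb, the homologous proteases that complete the 2 kinds of C3 convertase, did not share the pattern of C1q. C2 ran from 68.3 to 148 CPM over all tumors, with group means between 80.4 and 108 CPM. Cfb stayed at or below 2.55 CPM in every tumor, with group means from 0.75 CPM (WT anti-CD40) to 1.77 CPM (WT combination). The levels of both genes carry the uncertainty from exons shared with other models.

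Each treatment was first compared with IgG within a genotype, in a limma model of all 8 groups. No member passed a Benjamini-Hochberg adjusted p of 0.05 in these 6 comparisons, nor did any gene (0% of 15002 in each). At an unadjusted p under 0.05, the model picked 6 of 9 members, all higher, for HET anti-CD40 (background 14.9% of all genes), and 5 of 9, all higher, for HET combination (9.81%). For WT anti-PD1 it picked 1 of 9 (2.75%), and none for WT anti-CD40 (5.18%), WT combination (0.413%) or HET anti-PD1 (0.96%). For HET anti-CD40 the 6 were C1qa, C1qb, C1qc, C3, Serping1 and C3ar1, and for HET combination the same without C3ar1.

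The sizes were of a similar order under both agonist treatments. C3 was 2.62 ± 0.98 (SE) log2 higher in HET anti-CD40 than in HET IgG tumors (adjusted p = 0.26) and 3.65 ± 0.98 higher in HET combination tumors (adjusted p = 0.25). C1qb was higher by 1.87 ± 0.70 (adjusted p = 0.26) and 1.68 ± 0.70 (adjusted p = 0.44), and Serping1 by 1.45 ± 0.59 (adjusted p = 0.27) and 1.79 ± 0.59 (adjusted p = 0.33). Both comparisons share the HET IgG tumors. Among L7 tumors alone (3 HET anti-CD40, 2 HET IgG), C3 was 3.25 higher, C1qb 1.74, C3ar1 1.47 and Serping1 1.34. In WT mice the 1 member picked was Serping1 under anti-PD1, 1.56 ± 0.55 log2 higher than under IgG (adjusted p = 1.0) and 1.81 higher among L5 tumors. C3 was 1.59 ± 0.93 higher there, without passing either threshold.

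The design crosses both antibodies, so HET tumors of the 2 CD40 agonist groups were also compared with those of the 2 groups without the agonist (8 against 7 tumors). Here 3 of 9 members rose at an adjusted p under 0.05, where 4.26% of the 15002 genes passed, and 6 of 9 passed an unadjusted p under 0.05, where 26.6% did. C3 rose by 2.97 ± 0.72 log2 (7.85-fold, adjusted p = 0.027), Serping1 by 1.62 ± 0.43 (3.08-fold, adjusted p = 0.035) and C1qb by 1.77 ± 0.52 (3.41-fold, adjusted p = 0.049). C3ar1 (1.47 ± 0.43, adjusted p = 0.0501), C1qc (1.64 ± 0.51, adjusted p = 0.059) and C1qa (1.78 ± 0.56, adjusted p = 0.061) lay just beyond the threshold. C4b differed by 0.46, Cfb by 0.06 and C2 by -0.03, and the median of the 9 was 1.62 against -0.01 over all genes. In WT mice the same comparison had 0 of 9 members and 0% of genes at an adjusted p under 0.05, 0 of 9 and 2.53% at an unadjusted one, and a member median of -0.23. Against WT IgG alone the member median was 0.23 for anti-CD40 (6 of 9 higher) and 0.20 for the combination (8 of 9 higher). For WT anti-PD1, part of the pooled baseline, it was 0.91.

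These calls were sensitive to single tumors. C3 missed the threshold without any 1 of HET IgG replicates 1, 2 or 3, HET anti-PD1 replicate 2, HET anti-CD40 replicates 3 or 4, or HET combination replicate 3, with differences of 2.78 to 2.91 and adjusted p from 0.0503 to 0.107. Serping1 missed it without any of those 7 or of HET anti-PD1 replicate 3 and HET combination replicates 1 and 4 (1.34 to 1.72, adjusted p from 0.0504 to 0.148), and C1qb without any of those 10 or HET anti-PD1 replicate 1 (1.60 to 1.82, adjusted p from 0.0517 to 0.145). Without the 4 tumors that stood apart, an alternative chosen after seeing the data, C3 differed by 2.44 (adjusted p = 0.34), Serping1 by 1.23 (0.35) and C1qb by 1.33 (0.35), and 0 genes passed. Within L7 (3 anti-CD40 against 5 IgG or anti-PD1 tumors) C3 was 2.61 higher, C1qb 1.66, C3ar1 1.60, C1qc 1.49, C1qa 1.57 and Serping1 1.36. For C1qb, C1qc, C3 and C3ar1 these tumors did not overlap, and the share of all genes without overlap is not given here. With L number as a covariate the differences were 2.14 for C3, 1.08 for Serping1 and 1.27 for C1qb, and no gene passed.

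**Figure D2:**
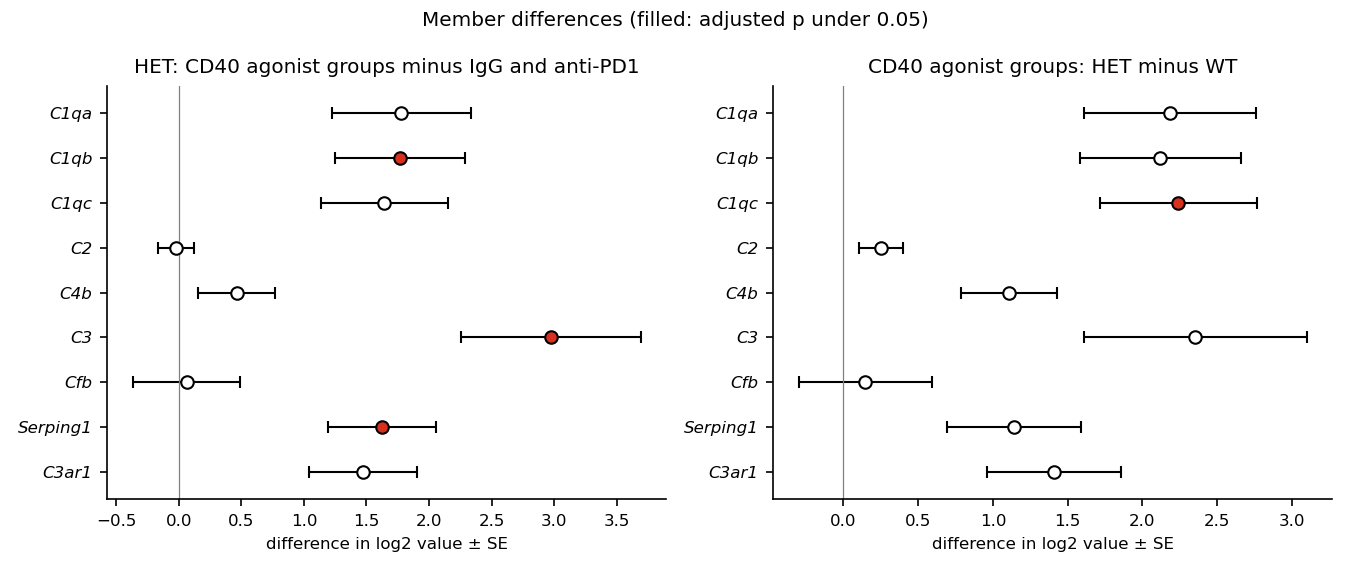
Difference in log2 value (horizontal axis) of the 9 complement genes with limma's standard error, in HET tumors of the CD40 agonist groups minus those given IgG or anti-PD1 (left), and in HET minus WT tumors of the CD40 agonist groups (right). Filled points have an adjusted p under 0.05: C3, Serping1 and C1qb on the left, C1qc on the right.

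HET was next compared with WT under each treatment. Under no treatment did an L number hold both genotypes. Genotype and L number therefore cannot be told apart in any of these comparisons. No member and no gene (0%) passed an adjusted p of 0.05 in any of the 4 comparisons. At an unadjusted p under 0.05, 0 of 9 members passed under IgG (background 2.07%), 1 lower under anti-PD1 (2.14%), 5 higher under anti-CD40 (3.83%) and 7 higher under the combination (5.56%). The 5 under anti-CD40 were the C1q chains, C4b and C3ar1, and under the combination C3 and Serping1 joined them. C1qc was 2.26 ± 0.74 log2 higher in HET than in WT tumors under anti-CD40 and 2.22 ± 0.74 higher under the combination, and C4b 1.19 ± 0.45 and 1.03 ± 0.45 higher. Under the combination the C1q chains, C4b and C3ar1 did not overlap between genotypes. The share of all genes without overlap is not given here, so this is a description only. Under anti-PD1, 6 of 9 members were lower in HET tumors and 3 higher, with a median of -0.15. Serping1 was 1.70 ± 0.63 lower and C3 1.88 ± 1.05 lower, while C4b was 0.36 ± 0.45 higher.

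Over both CD40 agonist treatments, 1 of 9 members rose in HET against WT tumors at an adjusted p under 0.05 (background 0.767%), and 7 of 9 passed an unadjusted p under 0.05 (7.01%). C1qc rose by 2.24 ± 0.52 log2 (4.72-fold, adjusted p = 0.038). C1qb (2.12 ± 0.54, adjusted p = 0.054), C1qa (2.18 ± 0.58, adjusted p = 0.062), C4b (1.11 ± 0.32, adjusted p = 0.093), C3 (2.35 ± 0.75, adjusted p = 0.15), C3ar1 (1.41 ± 0.45, adjusted p = 0.15) and Serping1 (1.14 ± 0.45, adjusted p = 0.38) did not pass. All 9 differences were above 0, with a median of 1.41 against -0.01 over all genes. The C1qc call was lost in 10 of 14 fits that each left out 1 tumor: any of WT anti-CD40 replicates 1 and 3, the 3 WT combination tumors, HET anti-CD40 replicates 3 and 4, and HET combination replicates 1, 3 and 4 (1.73 to 2.42, adjusted p from 0.051 to 0.21). It was also lost without the 4 tumors that stood apart (2.29, adjusted p = 0.14). No L number holds both genotypes under the agonist, so genotype and L number cannot be told apart here. With L number as a covariate, C1qc differed by 1.17 and Serping1 by -0.76.

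Whether the response to a treatment differed between genotypes was tested as an interaction. No member and no gene (0%) passed an adjusted p of 0.05. At an unadjusted p under 0.05, 0 of 9 members passed for anti-PD1 (background 1.03%) and anti-CD40 (2.23%), and 1 of 9 for the combination (3.5%). That 1 was C3, whose response to the combination was 3.33 ± 1.40 log2 larger in HET than in WT mice (adjusted p = 0.99). The C1q interactions for the 2 agonist treatments lay between 1.14 and 1.48 with standard errors of 0.99 to 1.08, so this number of tumors did not separate them from 0. With L number as a covariate those 6 differences turned negative, from -1.01 to -1.89. That fit joined L5 to L6 only through WT anti-PD1 replicate 4. It joined L6 to L7 and L8 only through HET IgG replicate 1.

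Marker levels of other cell types moved with these groups. The 15 macrophage markers kept of 16, which include no complement gene of the set, summed to 375 to 882 CPM in HET anti-CD40 and 325 to 862 CPM in HET combination tumors, against 137 to 246 CPM in HET IgG and 157 to 188 CPM in HET anti-PD1 tumors. WT groups ran from 57.3 to 666 CPM. The 12 fibroblast markers summed to 549 to 1121 CPM and 725 to 1331 CPM in the HET agonist groups, against 295 to 865 CPM (HET IgG) and 262 to 543 CPM (HET anti-PD1). Skeletal muscle markers (10 genes) summed to 36.6 to 601 CPM in the 8 HET agonist tumors, 4.68 to 312 CPM in HET IgG and 9.62 to 38.6 CPM in HET anti-PD1 tumors. Keratinocyte markers summed to 8.94 to 944 CPM and adipocyte markers to 57.5 to 203 CPM in HET agonist tumors, against 9.20 to 22.2 and 25.6 to 61.6 CPM in the other HET tumors, so both overlapped; Dsg3, Flg and Ivl had no read in any HET IgG tumor and Flg none in any HET anti-PD1 tumor. The 16 IFN-gamma response genes summed to at least 521 CPM in every HET agonist tumor and to at most 469 CPM in the other HET tumors.

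With the macrophage score (the mean log2 value of the list) as a covariate, the HET agonist difference was -0.04 for C1qa, 0.01 for C1qb, -0.01 for C1qc, 0.18 for C3ar1, 0.78 for Serping1 and 1.45 for C3, and no gene passed an adjusted p of 0.05. With keratinocyte and muscle scores as covariates, it was 0.57 for C1qb, 1.15 for Serping1 and 2.39 for C3. These are measurements of covariation between genes and lists; the part of cell content in the differences was not tested.

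Across the 30 tumors, 42 relations between members and list scores were tested with permutation tests, and differences between relations were not tested. The C1q mean correlated with the macrophage score at r = 0.96 (rho = 0.94, permutation p = 1e-05, the smallest possible, adjusted p = 4.2e-05), 0.94 without the 2 tumors farthest on the score, 0.95 with group means removed, and 0.93 to 0.99 within the 4 L numbers. C3ar1 followed the same score at r = 0.92 (rho = 0.94, adjusted p = 4.2e-05), 0.90 without the 2 farthest tumors, 0.86 with group means removed and 0.88 to 0.98 within L numbers. The highest relation of C3 was with the fibroblast score, at r = 0.84 (rho = 0.87, adjusted p = 4.2e-05), 0.89 without the 2 farthest tumors, 0.80 with group means removed, and 0.76 to 0.96 within L numbers. The highest relation of Serping1 was also with the fibroblast score, at r = 0.80 (rho = 0.82, adjusted p = 4.2e-05), 0.81 without the 2 farthest tumors, 0.68 with group means removed and 0.71 to 0.95 within L numbers. These lists were not exclusive: C3ar1 correlated with the fibroblast score at r = 0.80 (rho = 0.83, adjusted p = 4.2e-05) and the C1q mean at 0.73 (0.79 with group means removed). C3 and Serping1 correlated with the macrophage score at 0.74 and 0.70, and within L7 at 0.97 and 0.89, against 0.96 and 0.87 for the fibroblast score there. The C1q mean, C3ar1, C3 and Serping1 also correlated with the adipocyte score, at r = 0.82, 0.74, 0.75 and 0.69. With the IFN-gamma response score their r was 0.81, 0.67, 0.64 and 0.65 (adjusted p at most 0.00024 for both scores). With group means removed the latter were 0.63, 0.37, 0.34 and 0.45.

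The highest relation of C4b was with the IFN-gamma response score, at r = 0.53 (rho = 0.44, permutation p = 0.0022, adjusted p = 0.0052). It fell to 0.33 without the 2 farthest tumors and to 0.26 with group means removed, so it rested in part on those tumors and groups. Within L numbers it was 0.30 (L5), 0.14 (L6), 0.62 (L7) and 0.53 (L8). The C1q mean, C3, Serping1 and C3ar1 had a higher r with this score over all tumors than C4b had. C2 showed r = -0.11 with the macrophage score (rho = -0.11, adjusted p = 0.64) and 0.04 with the IFN-gamma response score (rho = 0.03, adjusted p = 0.89). Its highest relation was with the melanocyte score, at r = 0.49 (rho = 0.35, adjusted p = 0.012), which fell to 0.24 without the 2 farthest tumors. Cfb showed r = -0.19 with the macrophage score (rho = -0.20, adjusted p = 0.43) and 0.14 with the IFN-gamma response score (rho = 0.16, adjusted p = 0.59). Its strongest relation was negative, with the keratinocyte score, at r = -0.48 (adjusted p = 0.019), with rho = -0.28 (adjusted p = 0.19). That r was -0.24 without the 2 farthest tumors and -0.11 to -0.90 within L numbers.

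**Figure D3:**
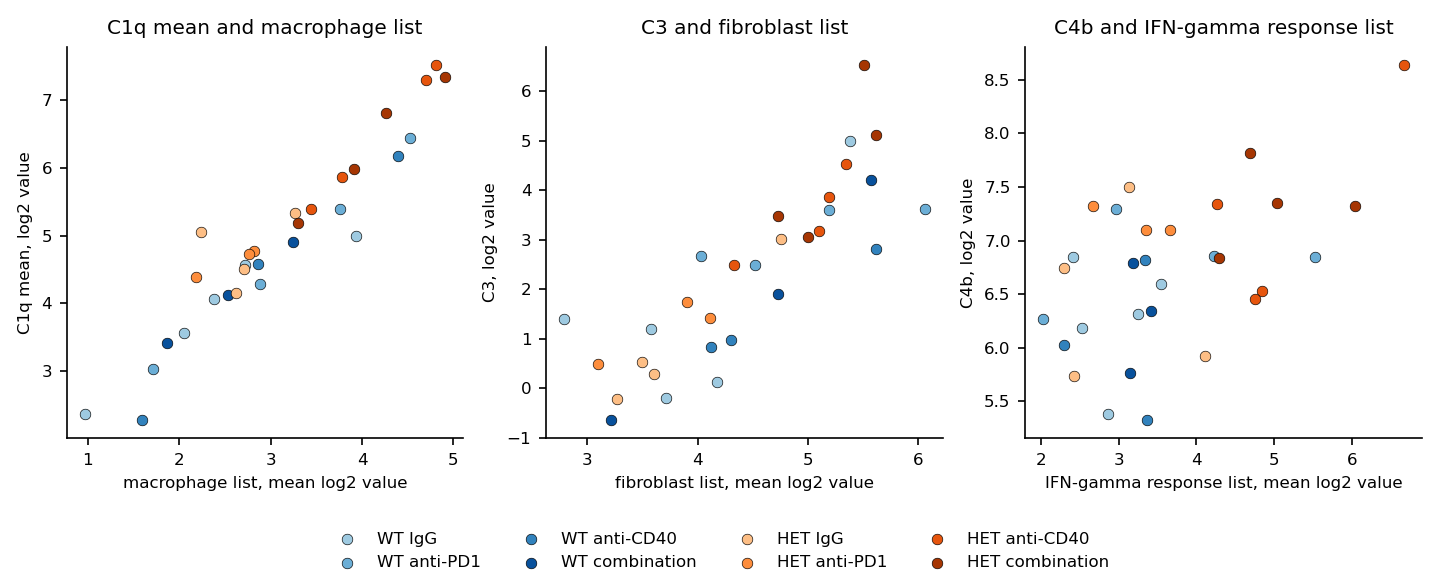
Log2 value of the C1q mean against the macrophage score, C3 against the fibroblast score and C4b against the IFN-gamma response score (mean log2 value of each list), 1 point per tumor, colored by group. C1q and the macrophage score lie near 1 line (r = 0.96), C3 and the fibroblast score scatter more (r = 0.84), and C4b is the loosest (r = 0.53).

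The genes most like each member were ranked by Pearson's r of log2 values over 30 libraries. The C1q mean was most like Laptm5 (0.98), Rac2 (0.97) and Aif1 (0.97), all genes of hematopoietic cells, of which Laptm5 and Aif1 are in the macrophage list. C3ar1 was most like C5ar1 (0.95), the receptor of C5a, B430306N03Rik (0.95) and Cd48 (0.95). C3 was most like Ms4a8a (0.91), Ogn (0.90) and Svep1 (0.90), the last 2 being genes of extracellular matrix proteins. Serping1 was most like Pla1a (0.89), C1s1 (0.88), the protease that the C1 inhibitor blocks, and Bgn (0.87), a matrix proteoglycan.

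C4b was most like Tmem140 (0.83), Uba7 (0.77) and Irf7 (0.75), of which Uba7 and Irf7 are interferon-induced. C2 was most like Ifi27 (0.87), S100a1 (0.85) and Cpq (0.84), and Cfb most like Gm21781 (0.89), Ccdc142 (0.89) and Ddx26b (0.88), at a level of few reads.

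The rest of the complement system was taken from a list of 48 further genes, of which 31 were in the table and 23 passed the filter. In HET tumors, 9 of these 23 passed an adjusted p of 0.05 between the agonist groups and the groups without agonist, 8 higher and 1 lower (background 4.26%), and their median difference was 1.01. All 9 calls were lost without HET anti-PD1 replicate 2, without HET combination replicate 3, without the 4 tumors that stood apart, and with L number, the macrophage score or the keratinocyte and muscle scores as covariates, where 0 genes passed. In the alternative pathway, Cfd (factor D, which cleaves factor B and is also an adipocyte product) rose by 4.45 ± 1.01 log2 (adjusted p = 0.023) and Cfp (properdin, which stabilizes the convertase) by 1.25 ± 0.31 (adjusted p = 0.028). Cfd averaged 30.4 CPM in HET combination, 16.1 CPM in HET anti-CD40 and 0.50 CPM in HET IgG tumors, and it had no read in 3 of the 30 libraries.

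Among the classical proteases, C1ra rose by 0.85 ± 0.21 (adjusted p = 0.027), C1s1 differed by 0.84 ± 0.33 (adjusted p = 0.11), and C1rl by -0.42. Fcna, a ficolin of the lectin pathway, rose by 2.22 ± 0.58, and Colec12 differed by 1.54 ± 0.46 (adjusted p = 0.052). C6, of the membrane attack complex, rose by 2.31 ± 0.55 from a level near 0, averaging 1.18 CPM in HET combination tumors, with no read in 10 of 30 libraries.

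Regulators split. Cd55, which speeds decay of convertases on cell surfaces, rose by 2.60 ± 0.67 (adjusted p = 0.031) but averaged only 2.06 CPM in HET combination and 0.87 CPM in HET anti-CD40 tumors. Cfi, the protease that inactivates C3b and C4b, fell by 1.44 ± 0.37 (adjusted p = 0.031), averaging 0.61 CPM in HET anti-CD40 and 2.33 CPM in HET IgG tumors. Cr1l (Crry, a rodent regulator of C3 convertases, 40.7 to 74.0 CPM over all tumors) differed by 0.03 ± 0.09, and Cd59a, which blocks the membrane attack complex, by -0.20 ± 0.25. Cd46 differed by -0.17 and Vtn by -0.25.

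Of the receptors, Itgax and Itgb2, the chains of complement receptor 4, rose by 1.75 ± 0.47 and 1.07 ± 0.28 (adjusted p = 0.035 for both). C5ar1 differed by 1.45 ± 0.44 (adjusted p = 0.056) and Itgam, the alpha chain of complement receptor 3, by 1.35 ± 0.48 (adjusted p = 0.087). Cd93, abundant in endothelium, differed by 0.03 ± 0.23. Between HET and WT tumors under the agonist, 2 of the 23 rose: Itgax by 2.37 ± 0.48 (adjusted p = 0.021) and C1ra by 0.92 ± 0.22 (adjusted p = 0.038), where 0.767% of all genes passed. Both calls were lost without WT anti-CD40 replicate 1, without HET combination replicate 3, without the 4 tumors that stood apart and with any of those covariates.

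**Figure D4:**
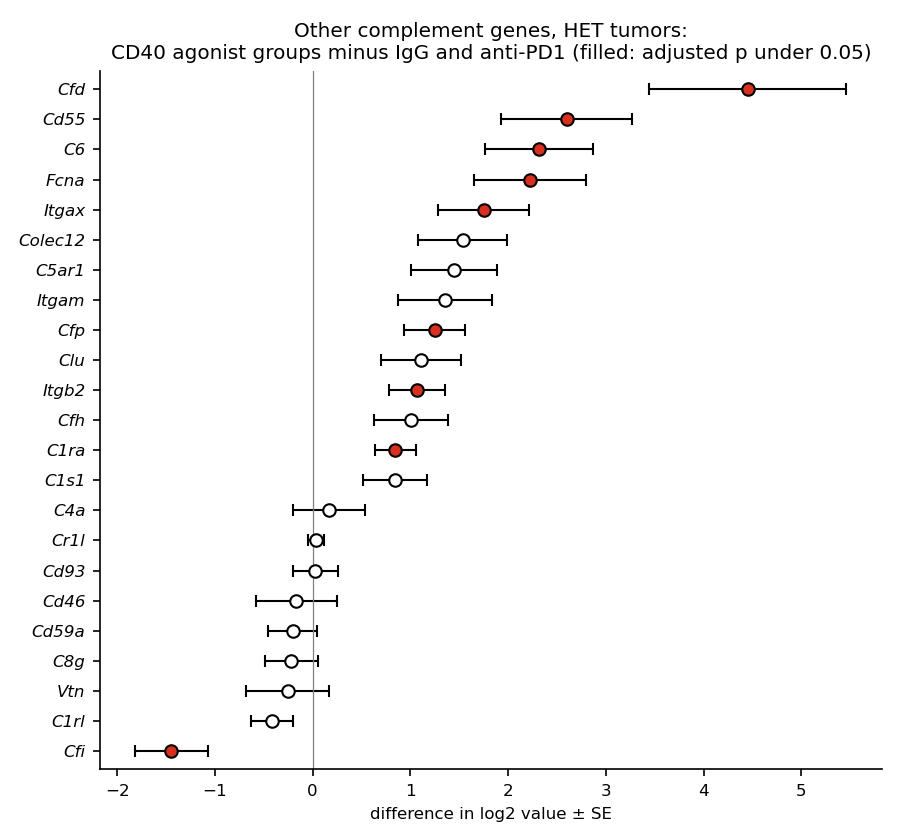
Difference in log2 value (horizontal axis, limma's standard error) of the 23 other complement genes that passed the filter, HET tumors of the CD40 agonist groups minus HET tumors given IgG or anti-PD1. Filled points have an adjusted p under 0.05: 8 lie above 0, led by Cfd, and Cfi alone lies below.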

How the data were processed

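RNA from 30 tumors was sequenced after extraction with a Maxwell kit and TruSeq library preparation, per the labels' protocols. The submitters' processing notes name STAR, mm10 and edgeR. The deposited values are log2 CPM made by the authors, with a prior count of 2 reads read from the values; all values returned whole reads within 0.01 reads, with zero reads giving -3.645. Versions, strand and annotation release are not given in the sources used here.

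The filter asked for a log2 value over 0 in 3 or more libraries and left 15002 genes. A mean per group was fitted with limma 3.58.1 (intensity trend, R 4.3.3) and 16 comparisons were drawn, adjusted by Benjamini-Hochberg over the genes kept. Fits were tested on simulated data. Relations used 100000 permutations (numpy 2.4.6). Members are given in all groups; a member's difference is printed where its size is at least 1 log2 or its unadjusted p under 0.05, and the others where a comparison is described whole. Other complement genes were named by the same rule, also without printing all that qualified, or as the 6 highest by mean level. The 3 most like genes are by Pearson's r. A further motif searched is not reported here. Alternatives were filters, scaling, log2(CPM + 1), voom on recovered reads, covariates, a replicate block and leaving out each library. Members and lists were chosen with earlier results of these data known.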

Additional observations from a re-analysis of the deposited data

Results flagged for a closer look

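In 55 tests for 1 tumor far from the rest of its group, which chance passes in about 1 in 20 groups, 3 values from 2 tumors stood out. Cfb had a log2 value of -2.841 in HET IgG replicate 2, below the other 3 tumors of that group. Cfb had a log2 value of -0.4208 in HET combination replicate 1, below the other 3 there. C1qb minus C1qa was -0.4328 on the log2 scale in HET IgG replicate 2, the single tumor of 30 with less C1qb than C1qa. In 27 comparisons of a member's treatment response between genotypes, in none did every HET tumor move one way and every WT tumor the other.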

How the results depend on the processing

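In HET tumors of the agonist groups against those without agonist (3 members and 639 genes called), leaving out 1 tumor gave 0 to 6 members and 0 to 1875 genes, with 0 genes without HET anti-PD1 replicate 2 or HET combination replicate 3. The stricter filter gave 421 genes, and the fit of only the groups compared gave 5 members. For HET against WT under the agonist (1 member, 115 genes), leaving out 1 tumor gave 0 to 3 members and 0 to 293 genes, log2(CPM + 1) gave 2 members and 192 genes, voom 0 members and 38 genes, and only the groups compared 0 members. L number, keratinocyte and muscle scores, the macrophage score, or leaving out the 4 tumors that stood apart (chosen after seeing the data) each gave 0 members and 0 genes in both comparisons; the cause was not tested, though 4 fewer samples were fitted in the last. Elsewhere 0 genes were called, except 1 in HET anti-CD40 and 6 in HET combination against HET IgG without HET IgG replicate 4, and 1 in HET anti-PD1 against HET IgG without HET anti-PD1 replicate 2.

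A replicate block gave 224 genes in the first comparison and 0 members and 75 genes in the second. C1qb was lost from the first (1.76, adjusted p = 0.097) and C1qc from the second (2.24, adjusted p = 0.099). The labels do not say that numbers pair tumors. Of 94 same-number pairs, 31 correlated above 0.1, with a median of -0.02. Of 298 other-number pairs, 110 did, with a median of 0.01. These values cannot show whether same-number tumors share more than a number.

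Of 61 member differences, 16 changed sign under some alternative, in 21 of 1373 refits and never by leaving out 1 tumor. Fits with L number joined L5 to L6, and L6 to L7 and L8, through 1 tumor each. With L number, the response to anti-CD40 differed between genotypes by -1.21 for C1qa, -1.24 for C1qb, -1.01 for C1qc and -0.27 for Serping1, and that to the combination by -1.89, -1.82, -1.56 and -0.47; Serping1 differed between genotypes by -0.86 under the combination and -0.76 over both agonist groups. With keratinocyte and muscle scores, the C1qa, C1qb and C1qc responses to the combination differed by -0.70, -0.15 and -0.25. With the macrophage score, C1qa and C1qc responses to the combination differed by -0.38 and -0.0072; in HET tumors C1qa was -0.041 under anti-CD40, -0.13 under the combination and -0.037 over both, C1qc -0.069 under the combination and -0.014 over both, and C3ar1 -0.036 under the combination. Of the correlations with an adjusted p under 0.05, 3 changed sign within an L number: C2 with melanocyte markers (-0.028 in L8), C3 with melanocyte markers (0.20 in L8) and C3ar1 with keratinocyte markers (-0.18 in L5). Depth limits Cfb and the terminal components, which had few reads.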
